A study of Mus musculus with 6 samples.

Results

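Foxp3 and 4 related forkhead genes, Foxp1, Foxp4, Foxo1 and Foxo3, were followed in splenic regulatory T cells (Treg cells) of mice labelled MAZR-cKO and wild type (WT). The 5 genes were taken by symbol as FoxP and FoxO factors of T cells from a table of 46078 genes, of which 44 carry a forkhead symbol. The libraries labelled MAZR-cKO came from mice of genotype MAZRf/f DEREG-eGFP+ CD4-cre+, whose Cre, driven by Cd4 sequence, was intended to remove the transcription factor MAZR (gene Patz1) from T cells, and the WT libraries from wild type DEREG-eGFP+ mice, whose labels name no Cre. There were 3 libraries under each label, from spleens of C57BL/6 mice of 6 to 8 weeks. All mice carried DEREG, a transgene in which Foxp3 regulatory sequence drives a green fluorescent fusion protein, and CD4+eGFP+ cells were sorted, about 800000 to 2000000 for each RNA preparation. The sort therefore selected on activity of Foxp3 regulatory sequence in every library. The labels do not say how many animals gave a library, so each p-value measures the spread between these libraries.

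Forkhead proteins bind DNA through a winged helix domain. FOXP3 is the lineage factor of Treg cells, and its loss causes fatal autoimmunity in mice and humans. FOXP1 keeps naive T cells quiescent, and FOXP4 is a close relative of it that can pair with other FoxP proteins through a leucine zipper. FOXO1 and FOXO3 are held in the cytoplasm when AKT or SGK1 phosphorylates them, and in the nucleus they raise genes of homing, survival and cell cycle arrest. Both FoxO proteins are known to act on Foxp3 in Treg cell development. MAZR is a zinc finger factor that binds G-rich DNA.

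The 250 bases before a start site are shown for Foxp3, the gene that defines the cells, and for Foxo1 and Foxo3, whose balance is described below. They come from RefSeq (GRCm38.p6, the assembly of mm10), each read 5′ to 3′ on the strand of its gene. Capitals mark 4 strings searched on both strands with no overlap between them here: the forkhead core TGTTTA, a run of 8 G (GGGGGGGG), the GC box GGGGCGGGG and the TATA box TATAAA. The Foxp3 window is chrX:7579426-7579675 (plus strand), that of Foxo1 chr3:52268087-52268336 (plus strand) and that of Foxo3 chr10:42276696-42276945 (minus strand).
Foxp3: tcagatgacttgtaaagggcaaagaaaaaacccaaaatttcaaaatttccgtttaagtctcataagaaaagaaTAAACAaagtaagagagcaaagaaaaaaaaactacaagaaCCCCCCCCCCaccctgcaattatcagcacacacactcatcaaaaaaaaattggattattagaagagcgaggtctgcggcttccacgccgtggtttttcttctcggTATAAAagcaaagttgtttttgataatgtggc
Foxo1: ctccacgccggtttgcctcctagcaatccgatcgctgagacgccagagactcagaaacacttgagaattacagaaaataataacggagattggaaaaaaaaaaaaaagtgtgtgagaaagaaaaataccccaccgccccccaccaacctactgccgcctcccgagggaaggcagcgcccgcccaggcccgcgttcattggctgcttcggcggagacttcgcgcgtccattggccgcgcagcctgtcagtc
Foxo3: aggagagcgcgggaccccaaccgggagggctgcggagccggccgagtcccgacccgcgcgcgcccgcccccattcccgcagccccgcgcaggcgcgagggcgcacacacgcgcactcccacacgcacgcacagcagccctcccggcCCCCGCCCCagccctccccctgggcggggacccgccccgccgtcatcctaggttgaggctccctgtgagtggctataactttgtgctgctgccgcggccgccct
All 5 genes matched the RefSeq table, with 8 windows in all (3 for Foxp1, 2 for Foxp3). In the Foxp3 window the forkhead core lies 177 to 172 bases before the start, a run of 10 C (10 G on the other strand) 137 to 128 bases before it and a TATA box 32 to 27 bases before it. Among all 32841 windows of that length, 12% held the forkhead core, 3.92% the run of 8 G, 10.4% the GC box and 12.4% the TATA box. The forkhead core was in 4 of the 8 windows, all 3 of Foxp1 among them, while the other strings were in 1 window each, the GC box in that of Foxo3. The GC content was 37.6% for the Foxp3 window shown, 56.0% for Foxo1 and 76.4% for Foxo3, against a median of 52.4% over all windows. A match describes letters only and shows no binding.

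The libraries held 15481565 to 28184456 reads in those labelled MAZR-cKO and 17671951 to 19148883 in WT. Patz1, the targeted gene, was higher in libraries labelled MAZR-cKO, at 177 to 181 CPM (the deposited unit, in which read counts are scaled for library size) against 67.6 to 74.9 CPM in WT, a log2 fold change of 1.32 (SE 0.05). This goes against a label that names a deletion, so every direction given here is one between labels. Whether reads came from the floxed exons is not visible in a value per gene. The sex-linked transcript Xist stood at 1145, 1552 and 605 CPM in libraries labelled MAZR-cKO, against 561, 774 and 355 CPM in WT, and 4 Y-linked genes summed to 116, 0.480 and 199 CPM against 217, 164 and 276 CPM. Every library but MAZR-cKO 2 thus held RNA of both sexes, while MAZR-cKO 2 held Xist with almost no Y-linked reads. Xist was higher and the Y-linked sum lower with the label MAZR-cKO within each pair. Their part in the values of the X-linked gene Foxp3 and of the lists was not tested beyond a covariate fit. With the summed Y-linked level as the covariate, the log2 fold change of Foxp3 was 0.05 (limma adjusted p = 0.998). That sum was far lower in MAZR-cKO 2 than in any other library, so the covariate largely marks that library wherever it is used. All 9 Treg markers were present, at a sum of 6213 to 6652 CPM in libraries labelled MAZR-cKO and 6405 to 6748 CPM in WT. Of the B cell, CD8 T and NK cell, myeloid and red cell lists none had a marker at 0 in every library. B cell markers summed to 1241 to 1557 CPM in libraries labelled MAZR-cKO and 1344 to 1398 CPM in WT, of which Ighm made up 1197 to 1482 and 1280 to 1348 CPM. CD8 T and NK markers summed to 45.8 to 73.1 and 41.1 to 56.7 CPM, myeloid markers to 90.6 to 167 and 120 to 142 CPM, and red cell and platelet markers to 10.1 to 25.1 and 14.9 to 51.9 CPM, in the same order. Of the Treg markers 7 of 9 were below 0 (median -0.05) and of the B cell markers 6 of 8 above 0 (median 0.36). The B cell median was 0.16 without MAZR-cKO 1 or MAZR-cKO 2, 0.70 without MAZR-cKO 3 and 0.11 with the Y-linked covariate. All 7 CD8 T and NK markers tested were above 0 (median 0.18), but 4 of 7 without MAZR-cKO 1 and 5 of 7 without WT 3. Of the red cell and platelet markers 5 of 6 were below 0 (median -0.61), and with the block 1 of the red cell markers, Hbb-bs, was called lower (7.12 ± 2.52 and 15.1 ± 8.61 CPM, limma adjusted p = 0.0206). Their part in the list values was not tested. In such bulk samples fewer cells of a type and less RNA per cell cannot be told apart.

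For none of the 5 genes was a difference between the libraries labelled MAZR-cKO and those labelled WT detected. Each gene overlapped between the labels, and the ratio of the mean in libraries labelled MAZR-cKO to that in WT ran from 0.949 for Foxo3 to 1.05 for Foxo1. limma on log2(CPM + 0.5) called 0 of the 5 at an adjusted p under 0.05, beside 5 of 12040 tested genes (0.0415%), and 0 of the 5 had an unadjusted p under 0.05, beside 5.25% of all tested genes. The same counts were 0 and 0 in limma with the replicate number as a block (background 0.382% and 10.6%), and 0 and 0 in edgeR (0.0386% and 5.19%). DESeq2 also gave 0 and 0 (0.221% of 14448 genes with an adjusted p and 2.04% of 22201 with a p). Of the 5, 4 had a log2 fold change above 0 and 1, Foxo3, below 0, with a median of 0.05 where all tested genes had a median of -0.01.

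Foxp3 stood at 1313, 1365 and 1415 CPM in libraries labelled MAZR-cKO 1, 2 and 3, against 1252, 1345 and 1371 CPM in WT 1, 2 and 3. The library labelled MAZR-cKO was the higher in each same-numbered pair, as for 12.9% of all tested genes, yet the labels overlapped. Its log2 fold change was 0.05 (SE 0.06, limma adjusted p = 0.933), with a 95% interval of 0.935 to 1.14 on the fold scale. The values rested on 21135 to 40807 reads per library. Counting error alone gives a spread of 0.603% in libraries labelled MAZR-cKO and 0.638% in WT, while the SD between libraries was 3.73% and 4.73% of the mean. The gene occupies positions 7573644 to 7595245 of chromosome X (plus strand of mm10), with 10 annotated transcripts.

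Foxp1 had 259, 275 and 271 CPM in libraries labelled MAZR-cKO, against 269, 259 and 252 CPM in WT, on 4173 to 7821 reads. WT 1 lay among the libraries labelled MAZR-cKO, and the library labelled MAZR-cKO was the higher in 2 of 3 pairs. The log2 fold change was 0.04 (SE 0.05, limma adjusted p = 0.926), with an interval of 0.959 to 1.11 on the fold scale. The gene spans 98925338 to 99522721 of chromosome 6 (minus strand), with 31 annotated transcripts that the table does not separate.

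Foxp4 had 197, 181 and 191 CPM in libraries labelled MAZR-cKO, against 195, 182 and 174 CPM in WT. In both labels replicate 1 was the highest, and the ranges overlapped. Its log2 fold change was 0.05 (SE 0.06, limma adjusted p = 0.931), and the interval ran from 0.947 to 1.13 on the fold scale. Foxp4 lies on chromosome 17 from 47867133 to 47924645 (minus strand).

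Foxo1 had 439, 521 and 476 CPM in libraries labelled MAZR-cKO, against 444, 479 and 444 CPM in WT. Replicate 2 was the highest in both labels, and the SD of the libraries labelled MAZR-cKO, 8.54% of the mean, was the widest of the 5 genes, against 4.41% in WT. Its log2 fold change was 0.07 (SE 0.07, limma adjusted p = 0.926), with an interval of 0.943 to 1.17 on the fold scale. The gene spans 52268336 to 52353221 of chromosome 3 (plus strand) and has 1 annotated transcript.

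Foxo3 had 131, 148 and 140 CPM in libraries labelled MAZR-cKO, against 143, 152 and 147 CPM in WT. It was the lower in the library labelled MAZR-cKO in each of the 3 pairs, as were 19.2% of all tested genes, while the labels overlapped through MAZR-cKO 2. The log2 fold change was -0.08 (SE 0.05, limma adjusted p = 0.917), and its interval ran from 0.870 to 1.03 on the fold scale. Foxo3 lies on chromosome 10 from 42181841 to 42276755 (minus strand).

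**Figure D1:**
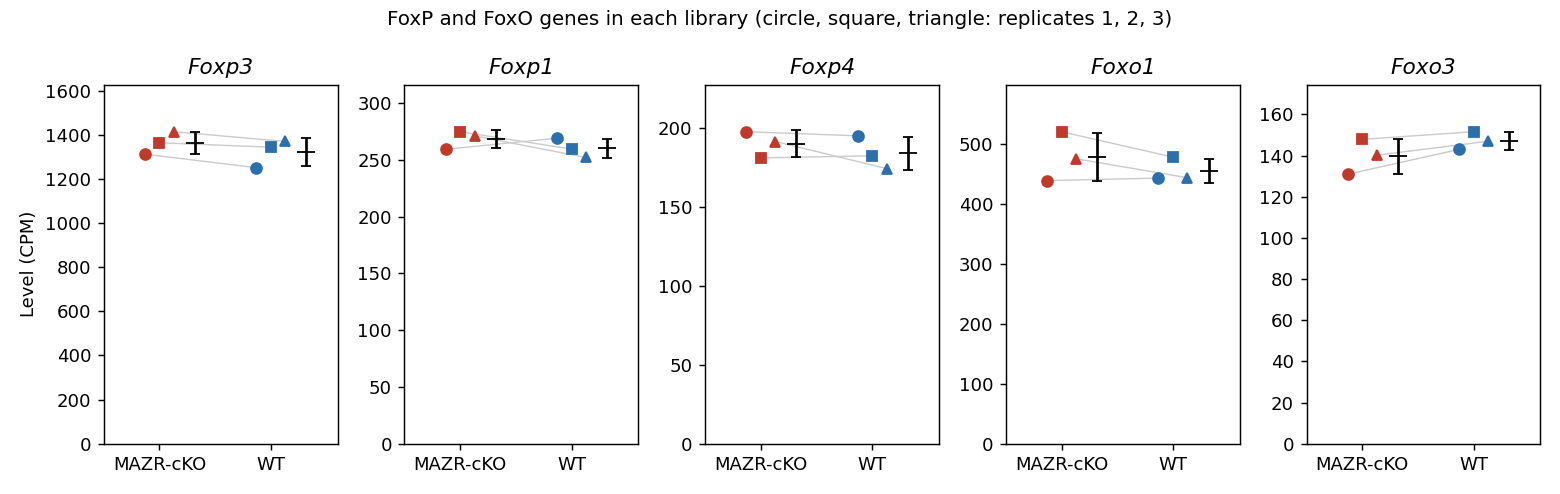
Level in CPM of each of the 5 genes in every library, those labelled MAZR-cKO left and WT right. Black marks are means ± SD (n = 3) and grey lines join libraries of the same replicate number. All panels start at 0, and in each the labels overlap.

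Set against each other per length, the 5 genes kept a wide order. Foxp3 averaged 298 ± 11.1 CPM per kb of annotated exon in libraries labelled MAZR-cKO and 289 ± 13.7 in WT (SD, n = 3 each), and Foxo1 followed with 55.3 ± 4.72 and 52.6 ± 2.32. Foxp4 had 38.5 ± 1.70 in libraries labelled MAZR-cKO and 37.3 ± 2.12 in WT, Foxp1 had 19.5 ± 0.589 and 18.9 ± 0.621, and Foxo3 had 18.4 ± 1.12 and 19.4 ± 0.567 CPM per kb. Within a library the Foxp3 level was 4.96 to 5.84 times that of Foxo1, the next gene. Foxp1 and Foxo3 overlapped over the 6 libraries, and their order in this pair is not fixed by these values, with a ratio of 0.942 to 1.09 per library. With the length of the longest transcript in place of all exons, the level of Foxp1 was 36.8 CPM per kb over the 6 libraries, against 19.2 with all exons, and Foxp1 then no longer overlapped with Foxo3. The order of the 5 means was the same with both lengths. By the longest transcript the Foxp3 level was 5.92 to 6.98 times that of Foxo1 within a library.

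**Figure D2:**
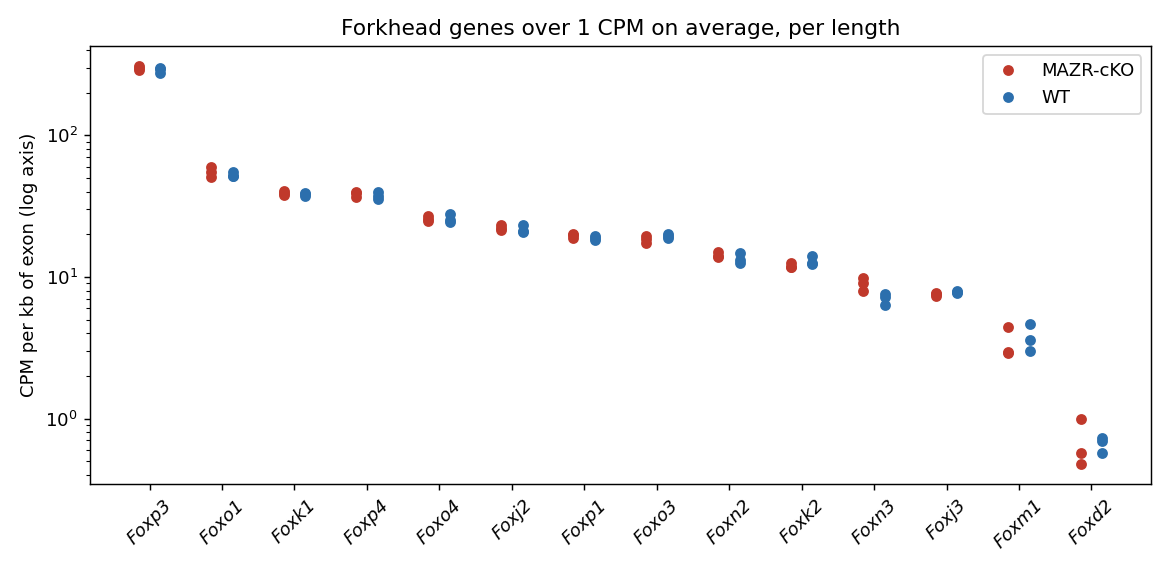
CPM per kb of annotated exon on a log axis for the 14 forkhead genes over 1 CPM on average, 1 point per library, with MAZR-cKO left of WT for each gene. Foxp3 stands above all others, at 274 to 309 CPM per kb, and Foxp1 and Foxo3 share a range.

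The balance between the 5 genes was examined as ratios within each library, which no scaling of a whole library can move. This comparison was added after the values had been seen. Of 10 gene pairs, 1 did not overlap between the labels, close to the 10.9% found over every pair of tested genes. It was Foxo1 over Foxo3, at 2.93, 3.08 and 2.97 (per kb of exon) in libraries labelled MAZR-cKO 1, 2 and 3, against 2.71, 2.76 and 2.64 in WT 1, 2 and 3. Each library labelled MAZR-cKO was thus above each WT library, with means of 2.99 ± 0.0765 and 2.70 ± 0.0593 (SD, n = 3 each). The exact two-sided permutation test gave p = 0.1, the smallest that 3 libraries against 3 allow, and 0.5 after adjustment over the 10 pairs. The ratios of Foxp3, Foxp4 and Foxp1 to Foxo3 were also higher in the library labelled MAZR-cKO in each of the 3 pairs, with overlap, and share the same Foxo3 values. Foxp3 over Foxp1 averaged 15.3 ± 0.379 and 15.3 ± 1.21, and Foxp4 over Foxp1 1.98 ± 0.144 and 1.97 ± 0.0473, in libraries labelled MAZR-cKO and in WT (SD, n = 3 each).

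**Figure D3:**
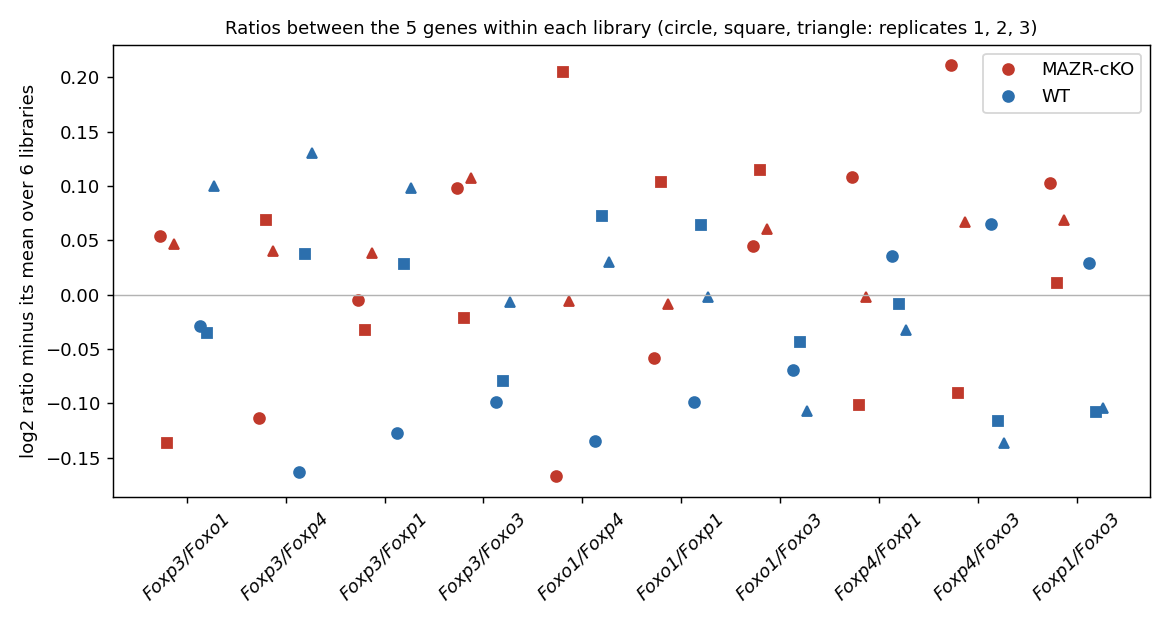
log2 ratio of each gene pair in every library, centred on its mean over the 6 libraries, with MAZR-cKO left of WT in each pair and 1 symbol per replicate number. For Foxo1 over Foxo3 the 3 points of the libraries labelled MAZR-cKO lie above the 3 WT points, and the other 9 pairs overlap.

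Over the 6 libraries the deviations of the 5 genes did not run together. The Pearson correlation between members, given as a description over 6 libraries that share their replicate numbers, ran from -0.77 for Foxp4 and Foxo3 to 0.63 for Foxp1 and Foxo1. The tested genes of at least 10 CPM whose levels were most like those of each member were Fam219a (r = 0.991), Pam and Ccdc115 for Foxp3. Cep68 (r = 0.995), Cradd and Xpr1 came closest to Foxp1, and Ivd (r = 0.979), Trbj1-6 and Trit1 to Foxp4. For Foxo1 they were Trbv16 (r = 0.991), Klf2 (r = 0.987) and Rchy1, and for Foxo3 Snapc5 (r = 0.997), Arpc1b and Rybp. With 8824 genes compared over 6 libraries, 9 to 38 genes reached an r over 0.95 with each member. Klf2, which encodes a factor of T cell trafficking and is a known target of FOXO1, had 326, 432 and 373 CPM in libraries labelled MAZR-cKO, against 315, 381 and 325 CPM in WT, so that replicate 2 was the highest in both labels, as for Foxo1.

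Beside the 5 genes, 9 further forkhead genes were over 1 CPM on average, and all 14 were tested. limma called 0 of the 14, and 1 had an unadjusted p under 0.05. That was Foxn3, which encodes a repressor tied to cell cycle checkpoints, with 104, 112 and 91.2 CPM in libraries labelled MAZR-cKO, against 82.5, 72.4 and 86.6 CPM in WT. The labels did not overlap, as for 10.7% of all tested genes, but the log2 fold change of 0.35 (SE 0.09) did not pass (limma adjusted p = 0.724, and 0.143 with the block). The adjusted p of Foxn3 was 0.0597 in DESeq2, near the limit, and 0.744 in edgeR. Foxk1, a forkhead factor of glycolytic and autophagy control, averaged 297 ± 9.47 and 291 ± 7.11 CPM in libraries labelled MAZR-cKO and in WT (SD, n = 3 each). Per kb of all exons it stood above Foxp1. By the longest transcript these genes overlapped, with means of 39.5 CPM per kb for Foxk1 and 36.8 for Foxp1. Foxo4, the third FoxO gene detected, averaged 89.7 ± 3.56 and 90.2 ± 6.55 CPM in the same order of labels. Foxj2, Foxn2, Foxj3, Foxk2, Foxm1, a mitotic factor, and Foxd2 had log2 fold changes of -0.14 to 0.09, with limma adjusted p of 0.914 to 0.996. Foxp2 and Foxo6, the remaining relatives, were among 11 forkhead genes with at most 28 reads over the 6 libraries, and 19 had no read. The 5 genes held 73.5% of the summed CPM of all forkhead genes.

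**Figure D4:**
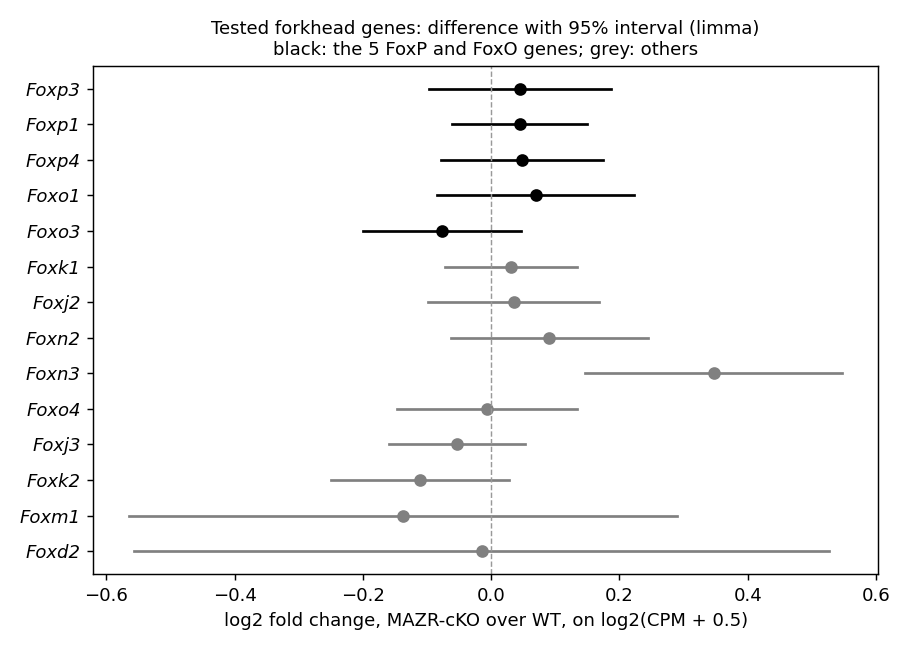
log2 fold change (MAZR-cKO over WT, limma) with its 95% interval for the 14 tested forkhead genes, the 5 FoxP and FoxO genes in black. The interval of Foxn3 alone leaves out 0 at this unadjusted level, and no gene passes after adjustment.

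Flicr, a long noncoding RNA that modulates Foxp3, overlaps the gene on the same strand, from 7573600 to 7581027 of the X chromosome. It was chosen after the values were seen. Flicr had 41.4, 49.3 and 59.8 CPM in libraries labelled MAZR-cKO, against 62.2, 48.4 and 58.5 CPM in WT. The labels overlapped, with a log2 fold change of -0.17 (SE 0.13, limma adjusted p = 0.922). Per kb of exon, Flicr stood at 4.68 ± 0.685% of Foxp3 in libraries labelled MAZR-cKO and at 5.46 ± 0.875% in WT (SD, n = 3 each). How reads in the shared stretch were assigned is not given in the sources used here, so both values are uncertain by it. Ccdc22, a protein-coding gene on the opposite strand, lies across the end of Foxp3 and was also chosen after the values were seen. It had 7.71 to 9.39 CPM in libraries labelled MAZR-cKO and 9.70 to 11.7 CPM in WT (limma adjusted p = 0.914). Its labels did not overlap, as for 10.7% of all tested genes. Chosen likewise, Ppp1r3f lies across the start of Foxp3 and Gm36995 across the whole gene, both on the opposite strand. For both the labels overlapped, with log2 fold changes of 0.07 and 0.11 (limma adjusted p = 0.933 and 0.959).

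Genes upstream of FOXP3 were measured next. Among 31 receptors, transducers and chromatin factors that act on the Foxp3 gene, 16 had a log2 fold change above 0 and 15 below 0, with a median of 0.01 and 0 calls. At an unadjusted p under 0.05 (limma) 0 were higher and 0 lower. Without MAZR-cKO 3, 5 were higher and 1 lower at that limit, and 1 was called. That setting called 14 genes over all genes. Il2rb, the signalling chain of the interleukin-2 receptor, averaged 1369 ± 173 and 1510 ± 66.5 CPM in libraries labelled MAZR-cKO and in WT. Nr4a1, an antigen receptor response factor, stood at 370, 387 and 214 CPM in libraries labelled MAZR-cKO, against 239, 254 and 252 CPM in WT, so that MAZR-cKO 3 lay below the WT range. Of the 31, 3 did not overlap between the labels, all lower, near the 10.7% of all tested genes. Il2rg, the chain shared by several interleukin receptors, was 1 of the 3, at 364 ± 9.79 and 388 ± 12.2 CPM in libraries labelled MAZR-cKO and in WT. The DNA demethylase gene Tet3 had a log2 fold change of 0.07 (limma adjusted p = 0.914 for Il2rg and for Tet3). Of 32 nuclear partners and corepressors, 15 were above 0 and 17 below 0 (median -0.02), with 0 calls. Of the 32, 4 did not overlap between the labels, near the 10.7% of all tested genes. They were the repressor subunit genes Gatad2a, Mta2 and Mta1 and the Runx partner gene Cbfb, the last 2 named for this count, with Gatad2a at 168 ± 3.38 and 178 ± 0.409 CPM. Hdac9, a deacetylase reported to act on FOXP3, averaged 10.3 ± 2.03 and 8.06 ± 1.47 CPM, and Ikzf4, the Eos gene, 227 ± 16 and 246 ± 10.4 CPM. Of 16 tested enzymes that modify or degrade FOXP3 protein, 9 were above 0 (median 0.01), 0 were called and 1 had an unadjusted p under 0.05. The signs turned with 1 library, with 6 above 0 without MAZR-cKO 2 or WT 1 and 7 without WT 3, and with 6 above 0 under the Y-linked covariate. The gene past the limit was Pim1, a kinase that phosphorylates FOXP3, at 577, 688 and 662 CPM in libraries labelled MAZR-cKO, against 545, 537 and 596 CPM in WT (log2 fold change 0.20, limma adjusted p = 0.914). The acetyltransferase gene Kat5, the ligase scaffold gene Cul3 and the methyltransferase gene Prmt5 had log2 fold changes of 0.10, -0.06 and -0.14. Chosen after their values were seen, the deubiquitinase gene Usp7 averaged 276 ± 10.0 and 282 ± 5.88 CPM and the ubiquitin ligase gene Stub1 85.7 ± 6.16 and 84.9 ± 4.84 CPM.

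Genes known to be raised with FOXP3 lay mostly below 0 although Foxp3 itself did not. Of 25 tested, 23 had a log2 fold change below 0 and 2, Swap70 and Il10 (named for this count), above 0, with a median of -0.14 against -0.01 for all tested genes. limma called 0, and 5 (20%) had an unadjusted p under 0.05, all lower, beside 2.92% of all tested genes that were lower at that limit. They were Ebi3, Entpd1, Capg, Gpr83 and Tigit, the last chosen for this count. Of the 25, 0 higher and 3 lower genes did not overlap between the labels, near the 10.7% of all tested genes in either direction. Ebi3, a subunit of interleukin-35, had 20.9, 17.4 and 18.4 CPM in libraries labelled MAZR-cKO, against 23.3, 22.3 and 24.0 CPM in WT. Entpd1, the ectonucleotidase CD39, averaged 51.2 ± 4.04 and 58.3 ± 2.47 CPM, and Capg, an actin capping protein, 299.9 ± 25.7 and 341 ± 25.0 CPM. With the block, 16 of the 25 were lower at an unadjusted p under 0.05, beside 6.66% of all tested genes, and 1, the receptor gene Gpr83, was called (limma adjusted p = 0.031). The list was chosen with earlier results of these libraries known, so its direction is no independent evidence. Gpr83 had 193, 131 and 257 CPM in libraries labelled MAZR-cKO 1, 2 and 3, against 284, 231 and 296 CPM in WT 1, 2 and 3, lower in each pair although the labels overlapped. The direction counts rested in part on the library labelled MAZR-cKO 2, without which 19 of 25 were below 0 and the median was -0.06, and on WT 3, without which 20 were below 0 and the median was -0.08. The count of 5 was 2 with quantile normalization, 2 without WT 3, 3 without WT 1 and 9 without MAZR-cKO 3. In the block fit without replicate pairs 1, 2 and 3 in turn, also added after the values had been seen, 14, 10 and 16 genes were lower at that limit, and 0, 1 and 6 were called. With the summed Y-linked level as a covariate, an alternative added after the values had been seen, 19 of 25 were below 0, with a median of -0.05. That level was 0.480 CPM in MAZR-cKO 2 and 116 to 276 CPM in the other libraries. The covariate thus largely marks MAZR-cKO 2, and this fit is no check separate from leaving that library out. Of 14 tested genes held lower with FOXP3, 11 were above 0 (median 0.09), with 0 calls. The median was 0.04 without WT 3, 0.05 without MAZR-cKO 2 and 0.03 with the Y-linked covariate, with 10 to 12 genes above 0 in these fits. Of the 14, 2 higher genes and 1 lower gene did not overlap between the labels, beside 10.7% of all tested genes in either direction. Dapl1, a gene of naive T cells, had 8.08, 8.16 and 7.70 CPM in libraries labelled MAZR-cKO, against 6.09, 4.94 and 4.59 CPM in WT, without overlap (limma adjusted p = 0.535). Lef1, another factor of naive T cells in the list, pointed the other way, at 254 ± 4.22 and 277 ± 12.5 CPM. Cd40lg, the CD40 ligand gene, and Actn1, a cytoskeletal gene, had log2 fold changes of 0.16 and 0.12.

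Enzymes that control FoxO proteins showed 0 calls among 37, with 15 above 0 and 22 below 0 (median -0.03). Of these, 4 had an unadjusted p under 0.05 (10.8%, beside 5.25% of all tested genes), 1 higher and 3 lower. That count was not stable: 0 higher and 1 lower were past the limit without MAZR-cKO 1 or 2, 0 and 2 without WT 1 or 2, and 1 and 1 in DESeq2. Ywhae and Ywhag encode 14-3-3 proteins, which hold phosphorylated FoxO proteins in the cytoplasm. Ywhae had 189, 187 and 198 CPM in libraries labelled MAZR-cKO, against 219, 209 and 221 CPM in WT, without overlap (log2 fold change -0.17, SE 0.05, limma adjusted p = 0.724). Of the 37, 0 higher and 7 lower genes did not overlap between the labels, beside 10.7% of all tested genes in either direction. Ywhag averaged 119 ± 5.27 and 132 ± 8.69 CPM, and Pik3r1, the regulatory subunit of PI3K, 296 ± 11.8 and 321 ± 12.6 CPM. Rictor, a subunit of the AKT kinase complex mTORC2 and itself raised by FoxO proteins, averaged 172 ± 9.55 and 156 ± 9.98 CPM. Akt1 and Sgk1 encode kinases of FoxO proteins and were chosen after their values were seen. Akt1 averaged 193 ± 15 and 209 ± 7.63 CPM and Sgk1 29.4 ± 4.34 and 27.5 ± 2.48 CPM.

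Genes raised by FoxO proteins had 19 of 32 above 0 and 13 below 0 (median 0.02), with 0 calls. Unadjusted p-values under 0.05 were found for 3 higher genes, Insr, Pik3ip1 and Rictor, and 1 lower gene, Lef1, beside 2.33% of all tested genes higher and 2.92% lower. Without MAZR-cKO 2 these counts were 1 higher and 2 lower, and without WT 1 or WT 2 they were 2 and 0. Pik3ip1, an inhibitor of PI3K, had 113, 123 and 122 CPM in libraries labelled MAZR-cKO, against 111, 107 and 98.9 CPM in WT. Insr, the insulin receptor, had 74.1, 78.0 and 71.5 CPM in libraries labelled MAZR-cKO, against 63.3, 64.1 and 69.0 CPM in WT. For both genes the labels did not overlap, and neither passed (limma adjusted p = 0.914 and 0.894). Of the 32, 3 higher genes and 1 lower gene did not overlap, beside 10.7% of all tested genes in either direction. Ccr7 and S1pr1, homing genes of this list also chosen after their values were seen, overlapped between the labels. Ccr7 averaged 249.9 ± 37.6 and 253 ± 9.88 CPM, and S1pr1 532 ± 37.0 and 524 ± 25.0 CPM. Chosen likewise, the interleukin-7 receptor gene Il7r averaged 303 ± 27.4 and 288 ± 27.7 CPM, the death gene Bcl2l11 101 ± 8.93 and 108 ± 2.42 CPM and the cell cycle inhibitor gene Cdkn1b 399 ± 44.0 and 390 ± 16.5 CPM. Without MAZR-cKO 2 the list had 12 above 0 and 20 below 0, with a median of -0.02, so its balance of signs turned with that library, and with the Y-linked covariate it had 14 above 0 and 18 below 0. Of 8 tested effector genes held lower by FOXO1, 5 were above 0 (median 0.04), with 0 calls. This balance turned with 1 library: 3 were above 0 without MAZR-cKO 2 (median -0.18) and without WT 1 (-0.14), and the median was -0.03 without MAZR-cKO 1. Without MAZR-cKO 3, WT 2 and WT 3 the median was 0.14, 0.11 and 0.02, and with the Y-linked covariate 2 were above 0 (-0.22). Eomes, a factor of cytotoxic cells, averaged 9.54 ± 1.76 and 7.54 ± 1.07 CPM, and Tbx21, the T-bet gene, 12.7 ± 3.13 and 15.9 ± 2.80 CPM. The perforin gene Prf1 and the chemokine receptor gene Cxcr3 had log2 fold changes of -0.30 and -0.29.

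**Figure D5:**
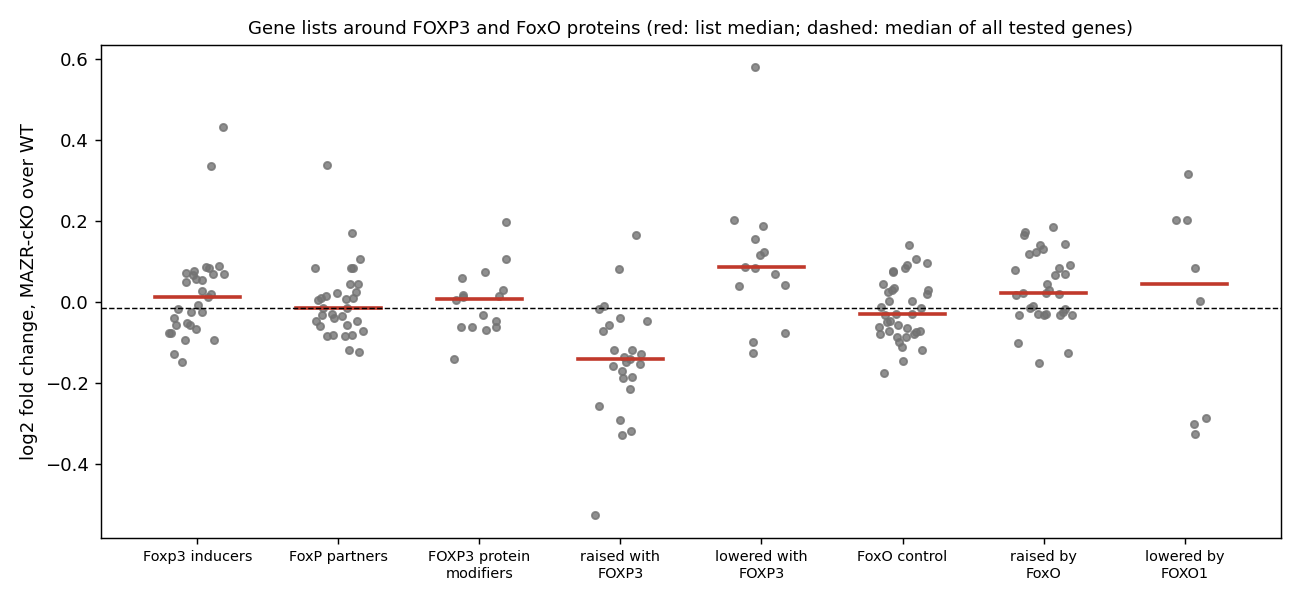
log2 fold change (MAZR-cKO over WT, limma) of each tested gene in 8 lists around FOXP3 and FoxO proteins, with the list median in red and the median of all tested genes, -0.01, dashed. The list raised with FOXP3 has the lowest median, -0.14, and that lowered with FOXP3 the highest, 0.09.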

How the data were processed

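RNA-seq of sorted splenic Treg cells gave 3 libraries under each label. The authors deposited 1 table of gene-level CPM values; the submitters' processing notes name STAR 2.5.2b, Subread 1.5.1, R 3.4, edgeR and mm10 without their roles. Values of a library add up to 96.2 to 99.2% of the total that CPM implies. All values above 0 were whole multiples of 1 read (0.0347 to 0.0621 CPM, tolerance 0.01 reads), so whole reads were recovered. Genes were matched by identifier to GENCODE annotation of GRCm38, and lengths are annotated exon lengths.

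log2(CPM + 0.5) of 12040 genes with at least 1 CPM in 3 or more libraries was tested with limma 3.58.1 in R 4.3.3 (trend, Benjamini-Hochberg adjusted p under 0.05), MAZR-cKO minus WT. edgeR 4.0.16 and DESeq2 1.42.0 on whole reads, scalings, pseudocounts, no filter, leaving out each library and a replicate block were alternatives. The code was tested on simulated data. Libraries of the same number deviated together (correlations 0.399, 0.381 and 0.379) and share a code in the labels whose meaning is not stated. The numbers were therefore taken as pairs in the block fits and in counts of pairs. The main limma fit, with its SEs and intervals, and the permutation test used no pairing. Members and lists were chosen with earlier results of these data known. Genes named are the 5 members, forkhead genes over 1 CPM, the 4 of smallest p per list around FOXP3 and FoxO proteins and any called (of the marker lists, those that bear on a value), and the 3 most like each member; others are marked as chosen after their values were seen.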

Additional observations from a re-analysis of the deposited data

How the results depend on the processing

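Over 19 alternatives none of the 5 genes was called, and Foxp3, Foxp1, Foxp4 and Foxo3 kept the sign of their log2 fold change (0.01 to 0.07, 0.01 to 0.09, 0.00 to 0.09 and -0.12 to -0.03). In some of these the sign could not turn. The limma block fit with all libraries and the fit without a filter return the same log2 fold change, and pseudocounts hardly move it at these levels. Foxo1 reversed, to -0.0045, with the summed Y-linked level as a covariate, and otherwise stayed above 0, up to 0.13. Without MAZR-cKO 2, the library that this covariate largely marks, its log2 fold change was 0.0067. The cause was not tested. The log2 difference of the Foxo1 over Foxo3 ratio ran from 0.12 to 0.16. Scalings, pseudocounts and the count models, which can hardly move such a ratio, left it at 0.15. Its lowest value came with the covariate and its highest in the block fit without replicate pair 1. The count of genes called over all genes, 5, was 32 with DESeq2, and 46 with the replicate block in limma and in edgeR. It ran from 4 to 14 when 1 library was left out, 14 being without MAZR-cKO 3. With the replicate block it was 8, 45 and 279 without replicate pair 1, 2 and 3, settings chosen after seeing the data, as was the covariate. The cause of these differences was not tested. Under the block with all libraries Gpr83 and Hbb-bs gained a call, and no other gene of the lists around FOXP3, FoxO proteins or cell types did. Without replicate pair 3 the block fit called genes in most of these lists. Among them were 6 genes raised with FOXP3, 2 inducers of Foxp3, 3 genes raised by FoxO proteins and 4 B cell markers. The lists lowered with FOXP3 and by FOXO1 had 0 calls in that fit. With 3 libraries per label an exact permutation p cannot go below 0.1, and reads cannot separate transcripts of a gene.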
